A study of Mus musculus with 8 samples.

Results

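The genes described here are Rgs1, Rgs2, Rgs3, Rgs10, Rgs14, Rgs16 and Rgs19, which encode 7 of the regulators of G protein signalling (RGS proteins) of the mouse. They were chosen by name, by a choice made with their normalised read counts and fold changes in both comparisons already known. They make up 7 of the 46556 gene names found in both tables, and 7 of the 21 symbols there that consist of Rgs and a number. Since those results entered the choice, the values of the 7 genes are given as a description, without p-values.

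RGS proteins bind the active, GTP-loaded alpha subunit of a heterotrimeric G protein and speed up the hydrolysis of its GTP, which ends the signal from the receptor. In T cells the receptors that act through G proteins include those for chemokines, sphingosine 1-phosphate, adenosine and prostaglandins. RGS proteins thereby limit how long a lymphocyte responds to a chemoattractant, and several RGS genes are known to be induced by activation.

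PolyA RNA was measured in mouse CD8+ T cells, taken from lymph nodes and spleens, in a pair of experiments. In the knockout experiment, Trim28-/- cells (the knockout) were set against Trim28fl/fl cells, the control that carries the floxed allele without its deletion, and both were activated in vitro. In the anti-IL-2 experiment, cells that received anti-IL-2, an antibody against the T cell growth factor, were set against untreated cells. Both of those groups were labelled wild type and were stimulated for 3 days through CD3 and CD28 by antibodies. Each of the 4 groups had 2 libraries. Age, sex and strain of the mice, how and in which cells Trim28 was deleted, and the length of activation in the knockout experiment are not given in the sources used here. The labels do not say whether the 2 libraries of a group came from separate mice or cultures, so every p-value measures only the spread between libraries, which may be technical.

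The libraries held 13222831 to 17069569 reads assigned to genes. Trim28 itself stood at 415 and 458 in knockout libraries, against 4262 and 4323 in control libraries, in reads divided by the size factor of the library (normalised read count). The 8 listed CD8 T cell markers summed to 2995 to 3451 CPM (reads scaled to the library's total) in all 8 libraries, and Cd4 did not exceed 0.597 CPM. B cell markers summed to 168 to 169.7 CPM in knockout against 119.6 to 122 in control libraries, and to 286 to 304 CPM in anti-IL-2 against 177 to 178 in untreated libraries. Most of that sum was the antibody gene Ighm, while the defining gene Ms4a1 did not exceed 0.117 CPM. Ighd was at 5.82 and 5.86 CPM in knockout against 1.58 and 1.13 in control libraries. With anti-IL-2 it was at 27.6 and 28.6 CPM, against 3.84 and 3.73 in untreated libraries. Cd79a (0.224 and 0.223 against 1.13 and 1.21 CPM) and Cd79b (0.448 and 0.371 against 1.36 and 1.51) were lower in knockout libraries, unlike the sum. Myeloid markers summed to 11.05 to 11.95 CPM in knockout against 19.7 to 22.4 in control libraries, and to 5.45 to 6.10 CPM in anti-IL-2 against 20.5 to 21.5 in untreated libraries, with Cd68 the main contributor. NK cell markers summed to 18.4 to 20.3 CPM in knockout against 11.9 to 13.7 in control libraries. With anti-IL-2 they summed to 9.97 to 10.4 CPM, against 21.5 to 22.4 in untreated libraries. Nearly all of each NK sum was the single gene Eomes, while Ncr1 and Klra8 were at 0 in all 8. The NK sums thus follow Eomes and are not read as a shift of the list as a whole. CD4 markers summed to 11.6 to 12.8 CPM in knockout against 37.5 to 39.1 in control libraries. With anti-IL-2 they summed to 34.2 to 35.8 CPM, against 29.003 to 32.9 in untreated libraries. The members of this list did not move together. Cd40lg was at 3.13 and 3.71 CPM in knockout against 25.7 and 27.2 in control libraries. Foxp3 was at 3.28 and 3.71 CPM in knockout against 0.302 and 0.378 in control libraries. With anti-IL-2 Cd40lg was higher and Foxp3 lower, while Zbtb7b was lower in both comparisons. Platelet and erythroid markers summed to at most 3.97 CPM. The part of these lists in the RGS values was not tested, and in such bulk RNA fewer cells of a type and less RNA per cell cannot be told apart.

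In both comparisons 5 of the 7 genes fell, 1 rose and 1 did not pass, at an adjusted p under 0.05 in a limma fit of the whole table. Rgs1, Rgs2, Rgs3, Rgs14 and Rgs16 were lower in both, Rgs19 was higher in both, and Rgs10 passed in neither. With the knockout, 28.2% of all tested genes were called lower and 32.9% higher. With anti-IL-2, 28.9% were called lower and 31.4% higher. Called either way were 61.0% of tested genes in the knockout and 60.3% with anti-IL-2. For 6 of the 7 the libraries of the groups did not overlap, in each comparison, as for 82.3% of tested genes in the knockout and 79.3% with anti-IL-2. The median log2 fold change of the 7 was -0.39 in the knockout and -0.67 with anti-IL-2. Nothing is read from these counts and medians, since the choice of the 7 used both comparisons. The 2 comparisons differed in which member moved most: Rgs2 in the knockout, by 2.28-fold, and Rgs16 with anti-IL-2, by 4.73-fold. The experiments share no libraries, and no test compared the fold changes of one with those of the other.

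**Figure D1:**
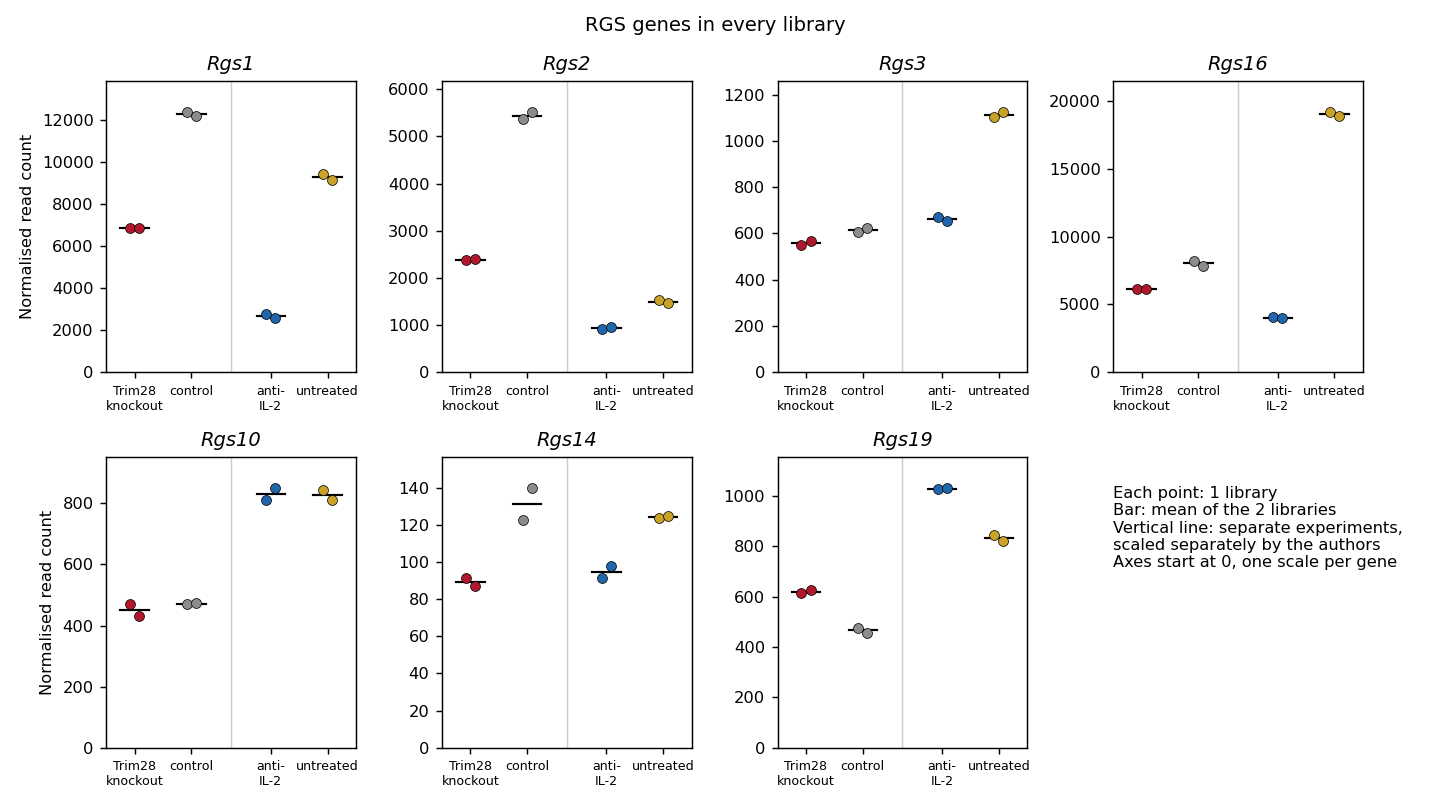
Normalised read count of the 7 RGS genes in each library, 1 panel and 1 linear axis from 0 per gene, knockout left of control and anti-IL-2 left of untreated. Points are single libraries and bars are means of the 2 libraries, and the vertical line parts the experiments, which were scaled separately. Rgs16 stands at 4031 and 4020.2 in anti-IL-2 libraries, against 19204 and 18919 in untreated ones, while the points of Rgs10 overlap in both experiments.

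Rgs1, Rgs2 and Rgs16 lie on chromosome 1 (GRCm38, GENCODE M21), and RefSeq (GRCm38.p6) gave promoter windows for 5 of the 7 genes. The windows of Rgs2 and Rgs16 are shown because both genes were lower in both comparisons. A further reason is that their windows share a short element at the same distance from the RefSeq start. In GENCODE, Rgs2 starts at 144004161 and Rgs16 at 153740349, so the equal distance holds for the RefSeq starts only. The 250 bases before the RefSeq start of Rgs2 are chr1:144004150-144004399 (minus strand), which overlap its GENCODE span. Those of Rgs16 are chr1:153740103-153740352 (plus strand). Both are printed 5′ to 3′. Capitals mark the letters TAAAAG and CCGCCC.
Rgs2: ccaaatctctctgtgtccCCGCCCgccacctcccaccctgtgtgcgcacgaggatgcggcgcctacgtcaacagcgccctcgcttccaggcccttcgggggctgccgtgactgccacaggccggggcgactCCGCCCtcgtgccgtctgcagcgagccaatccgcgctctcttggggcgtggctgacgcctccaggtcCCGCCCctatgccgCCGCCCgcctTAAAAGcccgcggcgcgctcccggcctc
Rgs16: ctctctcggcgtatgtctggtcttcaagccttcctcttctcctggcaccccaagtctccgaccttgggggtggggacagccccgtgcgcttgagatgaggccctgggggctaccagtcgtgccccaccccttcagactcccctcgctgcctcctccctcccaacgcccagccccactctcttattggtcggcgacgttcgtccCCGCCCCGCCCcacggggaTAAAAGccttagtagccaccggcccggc

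TAAAAG, read on the gene's strand, begins 28 bases before the RefSeq start in both windows. Of 32851 promoter windows, 1.61% hold it between 45 and 15 bases before their start. This element was looked for after the windows had been read. CCGCCC, a GC box core searched on both strands, occurs 4 times before Rgs2 and 2 times, overlapping, before Rgs16, and is held by 35.7% of windows. Each window is 300 bases long and runs past the start. G and C content, motif searches and shares of windows thus cover more than the 250 bases printed. The window is 70.0% G and C for Rgs2 and 66.0% for Rgs16, against a median of 52.7% over all windows. Neither measure sets these 2 genes apart from the others. The window of Rgs10 is 76.0% G and C and holds CCGCCC 2 times, the 3 windows of Rgs19 are 66.7%, 72.7% and 53.3% and hold it 1, 2 and 0 times, and the 2 of Rgs3 are 49.7% and 58.7% and hold it 0 and 1 times. The letters TTCNNNGAA, a core bound by STAT factors, had no match on either strand in the 8 windows of the 5 genes (8.30% of all windows hold it). TGANTCA, the AP-1 core, and TGACGTCA, the cAMP response element, also had no match in these 8 windows, and occur in 7.81% and 1.79% of all windows. These are descriptions of letters in short windows, and no binding was measured.

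Rgs16 encodes a small RGS protein that acts on Gi and Gq alpha subunits, and in these cells it was the RGS gene with the highest level per length. Its normalised read count was 6141 and 6112 in knockout libraries, against 8175 and 7872 in control libraries. It was 4031 and 4020.2 in anti-IL-2 libraries, against 19204 and 18919 in untreated libraries. In both experiments the groups stood apart, and the gap was wider with anti-IL-2. On the log2(value + 1) scale the fold change was -0.39 (SE 0.028, n = 2 per group) in the knockout and -2.24 (SE 0.047, n = 2 per group) with anti-IL-2. Rgs16 spans chr1:153740349-153745468, and Gm28513, an antisense gene, overlaps it. The 2 genes were counted separately. Since no strand setting is stated, whether reads from their shared bases went to the right gene cannot be told. Gm28513 had 13.8 and 12.7 in knockout against 14.2 and 18.2 in control libraries, and 10.5 and 14.4 in anti-IL-2 against 73.8 and 63.9 in untreated libraries.

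Rgs1 is a Gi and Gq regulator known for weakening the response of lymphocytes to chemokines. Its normalised read count was 6845 and 6839.5 in knockout libraries, against 12349 and 12147 in control libraries. It was 2781 and 2561 in anti-IL-2 libraries, against 9423 and 9128 in untreated libraries. No library of either lower group came near the other group. Rgs1 had log2 fold changes of -0.84 (SE 0.023) in the knockout and -1.80 (SE 0.053) with anti-IL-2, with n = 2 per group. For Rgs1 and Rgs16 alike, the fold change was greater in size with anti-IL-2 than in the knockout, a difference between experiments that was not tested.

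Rgs2, a regulator with a known preference for Gq, showed the opposite order. Its normalised read count was 2378 and 2397 in knockout libraries, against 5369.6 and 5514 in control libraries. It was 922 and 948 in anti-IL-2 libraries, against 1519 and 1460.4 in untreated libraries. All 4 groups were tight, and both pairs were separate. Rgs2 had log2 fold changes of -1.19 (SE 0.028) in the knockout and -0.67 (SE 0.06) with anti-IL-2, with n = 2 per group.

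Rgs3, which acts on Gi and Gq and has long and short isoforms that a count per gene does not separate, moved further in the anti-IL-2 experiment. Its normalised read count was 549 and 569 in knockout libraries, against 603 and 623 in control libraries. It was 669 and 654 in anti-IL-2 libraries, against 1104 and 1124 in untreated libraries. The knockout and control values are close without overlapping, whereas the anti-IL-2 and untreated values are wide apart. In the knockout Rgs3 was at -0.13 on the log2 scale (SE 0.046, n = 2 per group), a call lost under 7 of 13 alternatives, including each removal of 1 library (-0.16 to -0.11). With anti-IL-2 it was -0.75 (SE 0.065, n = 2 per group).

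Rgs14 and Rgs10 belong to the R12 subfamily, which acts on Gi alpha subunits, and Rgs14 also binds inactive Gi and small GTPases. The normalised read count of Rgs14, the lowest of the 7, was 91.6 and 87.2 in knockout libraries, against 123 and 139.9 in control libraries. It was 91.6 and 97.8 in anti-IL-2 libraries, against 124 and 125 in untreated libraries. The values of Rgs14 were thus lower in every knockout and anti-IL-2 library, at counts far below those of the other members. The log2 fold change of Rgs14 was -0.55 (SE 0.1, n = 2 per group) in the knockout and -0.39 (SE 0.14, n = 2 per group) with anti-IL-2. The first call was lost without knockout replicate 1 (-0.58) or 2 (-0.51) and with DESeq2 (-0.59). The second was lost without anti-IL-2 replicate A (-0.34), without untreated replicate 1 (-0.39) or 2 (-0.38), and with DESeq2 (-0.41).

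Rgs10 had nearly level values in both experiments. Its normalised read count was 471 and 432 in knockout libraries, against 471 and 472 in control libraries. It was 810.5 and 851 in anti-IL-2 libraries, against 843 and 809 in untreated libraries. The groups overlap in both experiments, and neither fold change passed (-0.06, SE 0.057, in the knockout and 0.01, SE 0.067, with anti-IL-2, n = 2 per group). The second turned to -0.01 with TMM scaling, edgeR and DESeq2, and is not read as a direction.

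Rgs19, whose protein (also called GAIP) sits on membranes through a cysteine string and acts on Gi and Gz, was the member that rose. Its normalised read count was 613 and 624 in knockout libraries, against 477 and 456 in control libraries. It was 1025 and 1031 in anti-IL-2 libraries, against 846 and 821 in untreated libraries. Both pairs stand apart by a modest margin. Rgs19 had log2 fold changes of 0.41 (SE 0.047) in the knockout and 0.30 (SE 0.063) with anti-IL-2, with n = 2 per group. Over the 13 and 12 alternatives, the calls of Rgs1, Rgs2, Rgs16 and Rgs19 held in each comparison.

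**Figure D2:**
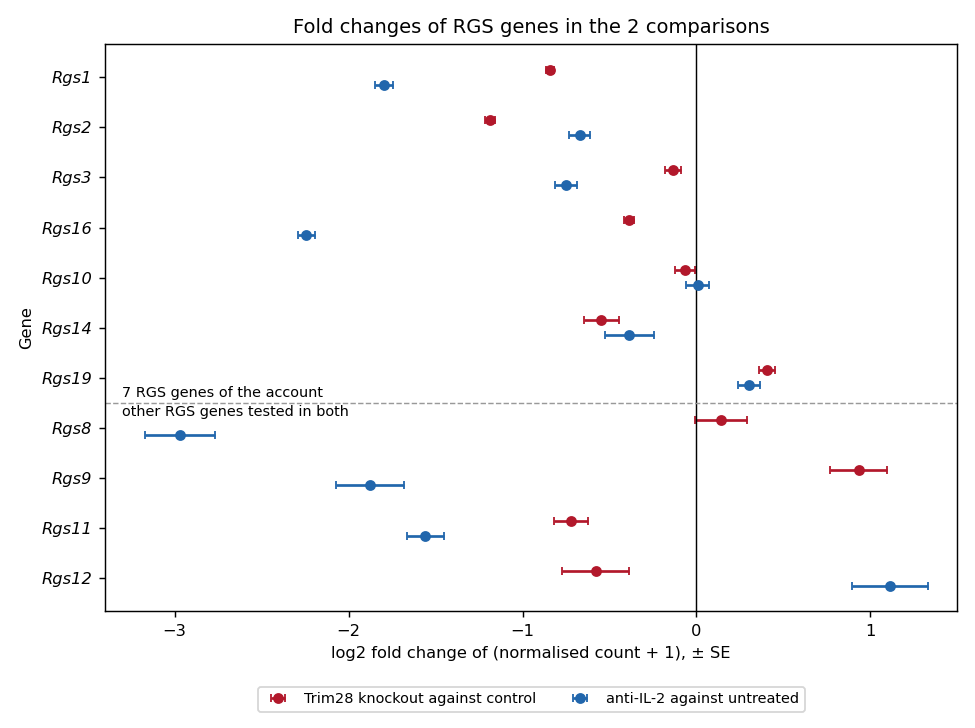
Log2 fold change of (normalised read count + 1) with its SE for the 7 genes (above the dashed line) and the 4 other RGS genes tested in both experiments (below it). Rgs2 is the lowest of the 7 in the knockout at -1.19, Rgs16 is the lowest with anti-IL-2 at -2.24, and Rgs19 lies above 0 in both.

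Levels of different genes were compared in RPKM, reads scaled to the length of the merged exons and to the library's total. Rgs16 ranked first in every group, at 198 ± 0.768 RPKM in knockout, 256 ± 6.29 in control, 105 ± 0.666 in anti-IL-2 and 473 ± 1.25 in untreated libraries (SD, n = 2). Rgs1 was next in 3 groups, at 74.6 ± 0.0835 RPKM in knockout, 131 ± 1.26 in control and 77.6 ± 1.13 in untreated libraries. With anti-IL-2 it stood at 23.6 ± 1.48 RPKM, below Rgs10 at 29.7 ± 0.888 and Rgs19 at 28.2 ± 0.0126.

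The rank of Rgs2 also differed between experiments. It was 49.9 ± 0.248 RPKM in knockout and 112 ± 2.32 in control libraries, the next level after Rgs1. It was 15.8 ± 0.234 RPKM in anti-IL-2 libraries, below Rgs10, Rgs19 and Rgs1, and 23.9 ± 0.48 in untreated libraries, between Rgs10 at 28.1 ± 0.579 and Rgs19 at 21.7 ± 0.292. RPKM does not use the size factors of the authors, but the 2 tables list different sets of genes (49490 and 55291 names). Levels across experiments therefore stand side by side and were not tested.

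Rgs10 and Rgs19 exchanged places with the knockout. Rgs10 was 19.99 ± 1.21 RPKM in knockout and 20.5 ± 0.0968 in control libraries. Rgs19 was 21.0 ± 0.275 RPKM in knockout and 15.6 ± 0.453 in control libraries. In the knockout the libraries of Rgs10 and Rgs19 overlap, so their order there is within the spread.

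Rgs3, at 3.75 to 5.99 RPKM over the group means, and Rgs14, at 1.37 to 2.31, were the lowest of the 7 in every group. These levels depend on the length used. The merged exons of Rgs1 cover 6947 bases with its introns included, and its longest coding transcript 3841. With the coding transcript as length Rgs16 stayed first in all 4 groups, Rgs1 in anti-IL-2 libraries reached 42.6 RPKM beside Rgs19 at 41.7, and Rgs10 passed Rgs19 in knockout libraries (38.9 against 31.0). In untreated libraries Rgs2 then came below Rgs19 (28.7 against 32.0).

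**Figure D3:**
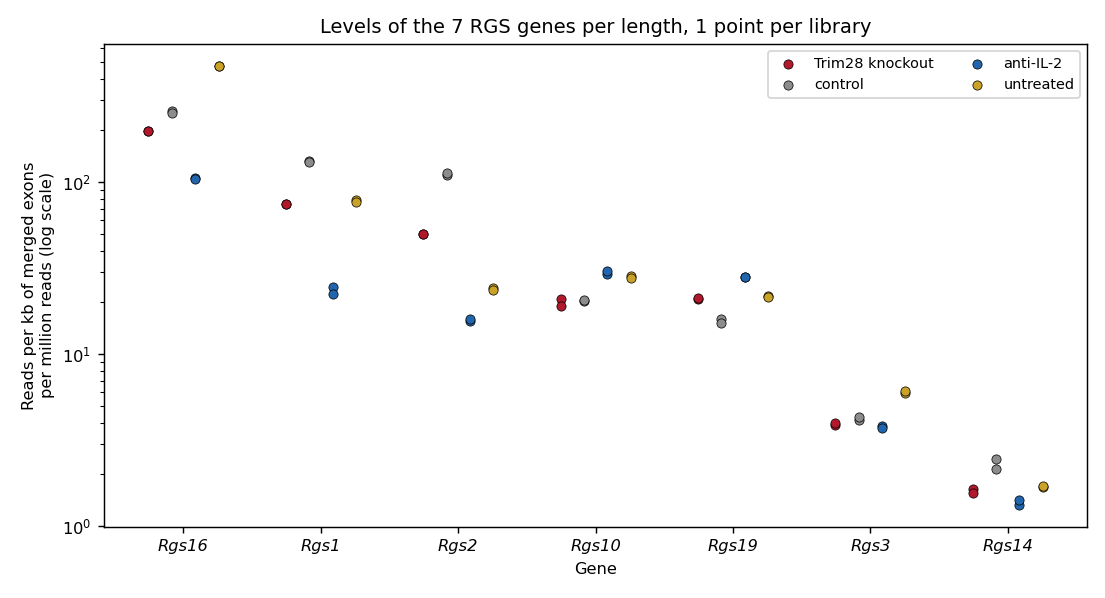
RPKM over merged exons (log axis) of the 7 genes in the 4 groups, knockout left of control and anti-IL-2 left of untreated. Each point is 1 library. Rgs16 is highest in every group, and Rgs3 and Rgs14 are lowest.

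Among all 21 RGS genes the 7 held 98.6% to 98.9% of the summed RPKM in each group. That sum was 374 ± 2.05 in knockout and 547 ± 5.64 in control libraries, and 211 ± 1.09 in anti-IL-2 and 639.8 ± 3.8 in untreated libraries (SD, n = 2). Rgs16 alone gave 53.0% of it in knockout and 46.7% in control libraries, and 50.03% in anti-IL-2 and 74.0% in untreated libraries.

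Of the other 14 RGS genes, Rgs8, Rgs9, Rgs11 and Rgs12 passed the filter on low values in both tables, and the other 10 did not exceed 6.71 in any library. Rgs11, of the R7 subfamily that works bound to Gnb5, had 176 and 153 in knockout against 286 and 257 in control libraries (log2 fold change -0.72, SE 0.096, limma adjusted p = 0.00129). It had 131 and 124 in anti-IL-2 against 376 and 377 in untreated libraries (-1.56, SE 0.1, limma adjusted p = 1.99e-10). Rgs11 thus fell in both experiments. With the related genes Rgsl1, Rgs7bp and Rgs9bp, 1 of 4 tested other RGS genes rose and 2 fell in the knockout, and 1 of 5 rose and 3 fell with anti-IL-2. The higher one in the knockout was lost without knockout replicate 1 or 2 (0 rose), and 1 of the 2 lower ones without control replicate 1 or either knockout replicate. With anti-IL-2, 2 rose without untreated replicate 2.

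Rgs9, Rgs12 and, in the knockout, Gnb5 were singled out after their values were seen. Rgs9, also of the R7 subfamily, rose in the knockout (0.93, SE 0.16, limma adjusted p = 0.00395) and fell with anti-IL-2 (-1.88, SE 0.2, limma adjusted p = 1.18e-07). Removing knockout replicate 1 or 2 took the first of these calls away (limma adjusted p = 0.0917 and 0.0578). Rgs12, a relative of Rgs10 and Rgs14, rose with anti-IL-2 (1.11, SE 0.22, limma adjusted p = 0.000228). Its knockout value was -0.58 (SE 0.19, limma adjusted p = 0.043), and that call was lost under alternatives that included edgeR (adjusted p = 0.07), DESeq2 (0.476), the replicate block (0.0627) and the removal of control replicate 1 (0.143) or knockout replicate 1 (0.135) or 2 (0.11). Gnb5 fell in the knockout (-0.76, SE 0.11, limma adjusted p = 0.00169) and with anti-IL-2 (-1.55, SE 0.17, limma adjusted p = 2.42e-07).

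Rgs2 and Rgs1 are 238 kb apart on chromosome 1, with Rgs13 between them and Rgs21 and Rgs18 beyond Rgs1. Rgs13 had at most 2 reads in a library, and Rgs18 and Rgs21 had 0 reads in all 8. A count of 0 allows up to 3 reads, or 0.176 to 0.227 CPM by library. Rgs2 lies at chr1:143999338-144004161 and Rgs1 at chr1:144242296-144249242, both on the minus strand. The nearest protein-coding gene past Rgs2 is the proteasome deubiquitinase gene Uchl5, 191.9 kb away. Unlike Rgs2, Uchl5 rose, by 0.46 in the knockout (SE 0.043, limma adjusted p = 0.000342) and 0.93 with anti-IL-2 (SE 0.062, limma adjusted p = 1.78e-10).

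Rgs8 lies 40.0 kb from Rgs16. It had 56.1 and 45.1 in knockout against 46.7 and 44.6 in control libraries, which overlap, and 21.0 and 17.3 in anti-IL-2 against 173.6 and 140.1 in untreated libraries. With anti-IL-2 Rgs8 fell by 2.97 on the log2 scale (SE 0.2, limma adjusted p = 2.09e-10).

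The remaining members lie on other chromosomes. Rgs19 (chr2:181688419-181693977, minus strand) ends 0.348 kb from the end of Tcea2, a transcription elongation factor gene on the plus strand. Tcea2 rose in the knockout (1.36, SE 0.15, limma adjusted p = 0.000565) and with anti-IL-2 (1.09, SE 0.13, limma adjusted p = 4.92e-07), and reads that run past one gene into the other could not be separated without strand. Rgs3 (chr4:62559847-62704001), Rgs10 (chr7:128373621-128418758) and Rgs14 (chr13:55369732-55384687) overlap no gene with more than 10 reads in a library. Lman2, which lies 6.95 kb from Rgs14 and encodes a cargo receptor, passed in neither comparison (0.04 in the knockout and -0.06 with anti-IL-2).

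The genes most like each member over the 8 libraries were ranked by the root mean square difference in log2 level after each gene's mean in each table was subtracted, among 8635 genes. Closest to Rgs1 were the co-stimulatory receptor gene Icos (0.03) and the adhesion receptor gene Crtam (0.0374). Closest to Rgs16 were Pcyt1a, a phosphatidylcholine synthesis gene (0.0453), and the transcriptional inhibitor gene Id2 (0.0497). Closest to Rgs2 were the lysosomal trafficking gene Lyst (0.0501) and Stat4, which relays IL-12 signals (0.0526).

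Rgs19 came closest to the co-stimulatory receptor gene Tnfrsf18 (0.0188), followed by the mitochondrial carrier gene Slc25a5 (0.0199). Rgs3 came closest to the chromatin remodeller gene Ss18 (0.0228) and the co-activator gene Pou2af1 (0.0232). Rgs14 came closest to the Notch inhibitor gene Numb (0.0343) and the adenosine receptor gene Adora2a (0.0389), and Rgs10 to Ik (0.0273) and Pbx2 (0.0284). These are likenesses over 2 comparisons, with a few points each. The difference is not scaled to the size of a member's fold changes, so its size is not compared between members.

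The other genes of the pathway were taken from lists of 172 genes by function, of which 111 were tested in the knockout and 117 with anti-IL-2. In the knockout 39 of 111 rose and 44 fell, with a median log2 fold change of -0.01 against 0.03 over all tested genes. With anti-IL-2 32 of 117 rose and 51 fell, with a median of -0.11 against 0.02. Of all tested genes, 32.9% were called higher and 28.2% lower in the knockout, and 31.4% and 28.9% with anti-IL-2. The counts of the other RGS genes above and of each list below stand beside these shares. The lists were not tested as sets. They were chosen with earlier results of these data known, and most genes named from them had the greatest fold changes. The adjusted p-values printed for such genes are descriptions and not independent evidence.

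Alpha subunits moved in both directions. Their list holds Gs and G12/13 genes besides those of the Gi, Gq and Gz classes named above for the members. In the knockout 4 of 9 tested rose and 5 fell, and with anti-IL-2 2 rose and 4 fell. The knockout counts were 1 and 3 with DESeq2, and 2 rose without control replicate 2 or either knockout replicate, while 3 fell without knockout replicate 1 and 2 without knockout replicate 2. With anti-IL-2 none rose without untreated replicate 1 (2 fell) or 2, and 1 rose without anti-IL-2 replicate B, by limma. Gnaq, the Gq subunit gene, fell in the knockout (-0.65, SE 0.044, limma adjusted p = 0.000101). With anti-IL-2 Gnaq was -0.24 (SE 0.061, limma adjusted p = 0.00229), a call lost without untreated replicate 1 (-0.22, adjusted p = 0.0689). Gna12, of the G12/13 class, rose in the knockout (0.71, SE 0.091, limma adjusted p = 0.00111), and Gna13 of the same class fell with anti-IL-2 (-0.39, SE 0.051, limma adjusted p = 2.23e-06). Gna13 in the knockout was -0.26 (SE 0.038, limma adjusted p = 0.00191), a call lost without knockout replicate 2 (-0.23, adjusted p = 0.059). Gna12 with anti-IL-2 (0.21, limma adjusted p = 0.0313) lost its call under 6 of 12 alternatives, among them the removal of anti-IL-2 replicate B (0.12), untreated replicate 1 (0.19) or untreated replicate 2 (0.23). Gnal, an olfactory-type Gs gene (-0.42 in the knockout, limma adjusted p = 0.00595), lost its call without control replicate 1 (-0.38) and without knockout replicate 1 (-0.43) or 2 (-0.41). With anti-IL-2 Gnal was -0.29 (limma adjusted p = 0.455).

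Beta and gamma subunits are released when the alpha subunit is activated. In the knockout 2 of 11 rose and 6 fell, with a median of -0.36, and with anti-IL-2 0 rose and 7 fell, with a median of -0.35. In the knockout 1 rose without control replicate 1 or 2 or knockout replicate 1, and 0 without knockout replicate 2. The number that fell was 4 without control replicate 1 or knockout replicate 2, 5 without knockout replicate 1, 6 without control replicate 2 and 4 with DESeq2. The gamma subunit gene Gng12 had 100.4 and 101 in knockout against 212 and 215 in control libraries (-1.08, SE 0.071, limma adjusted p = 9.48e-05). It had 107 and 101 in anti-IL-2 against 321 and 276 in untreated libraries (-1.51, SE 0.12, limma adjusted p = 2.32e-09). Gng5, another gamma subunit gene, fell with anti-IL-2 (-0.49, SE 0.077, limma adjusted p = 2.26e-05). In the knockout Gng5 (-0.36) lost its call without control replicate 1 (-0.30) and without knockout replicate 1 (-0.29) or 2 (-0.43). Gnb4 (-0.41) lost it without control replicate 1 (-0.37) and without knockout replicate 2 (-0.36). With anti-IL-2 Gnb4 was -0.35 (limma adjusted p = 0.00889), a call lost without untreated replicate 1 (-0.31).

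Receptor kinases, arrestins and other G protein regulators, a list that also holds the alpha subunit chaperone genes Ric8a and Ric8b, had 7 higher and 4 lower of 14 tested in each comparison. DESeq2 called 2 lower in the knockout. Grk6, a receptor kinase gene of lymphocytes, had 1505 and 1632 in knockout against 808 and 817 in control libraries, and 3103 and 3475 in anti-IL-2 against 1721 and 1804 in untreated libraries. Grk6 rose in both (0.95, SE 0.048, limma adjusted p = 3.9e-05, and 0.90, SE 0.06, limma adjusted p = 1.7e-10). Arrb1, the gene of beta-arrestin 1, fell in both (-1.26, SE 0.08, limma adjusted p = 8.21e-05, in the knockout and -1.18, SE 0.08, limma adjusted p = 2.09e-10, with anti-IL-2). Arrb2, the gene of beta-arrestin 2, rose in both (0.73, limma adjusted p = 9.96e-05, in the knockout and 0.31, limma adjusted p = 8.44e-05, with anti-IL-2). So did Gpsm1, whose protein binds inactive Gi (0.65, limma adjusted p = 0.000468, in the knockout and 0.91, limma adjusted p = 1.48e-07, with anti-IL-2).

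Effectors split in both directions, with 3 of 11 higher and 2 lower in the knockout and 3 of 13 higher and 3 lower with anti-IL-2, where 1 was higher without anti-IL-2 replicate B or untreated replicate 1. Plcb2, a phospholipase C gene, fell in the knockout (-0.80, SE 0.072, limma adjusted p = 0.000281) and with anti-IL-2 (-0.84, SE 0.094, limma adjusted p = 2.79e-07). So did Rasgrp2, the gene of an exchange factor for Rap1 (-1.28, limma adjusted p = 0.000332, in the knockout and -0.93, limma adjusted p = 3.97e-07, with anti-IL-2). Prex1, a Rac exchange factor gene, rose in the knockout (1.33, SE 0.041, limma adjusted p = 1.01e-05) and was -0.02 with anti-IL-2 (limma adjusted p = 0.773). Pik3r5, a subunit gene of the G protein-coupled PI3 kinase, fell with anti-IL-2 (-1.08, SE 0.07, limma adjusted p = 1.17e-10) and was -0.01 in the knockout (limma adjusted p = 0.906).

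Genes of cAMP signalling had 7 of 19 higher and 6 lower in the knockout, and 8 of 20 higher and 8 lower with anti-IL-2. The knockout count of lower genes was 3 without either control replicate. Crem, a cAMP-responsive transcription factor gene, had 620.4 and 668 in knockout against 1526 and 1523 in control libraries, and 370.4 and 291 in anti-IL-2 against 1429 and 1392 in untreated libraries. Crem fell in both (-1.24, SE 0.047, limma adjusted p = 1.76e-05, and -2.10, SE 0.09, limma adjusted p = 2.32e-13). Pde7a, a cAMP phosphodiesterase gene, also fell in both (-0.88, limma adjusted p = 1.2e-05, in the knockout and -1.03, limma adjusted p = 2.6e-12, with anti-IL-2). The CREB co-activator gene Crtc1 rose in both (0.75, limma adjusted p = 0.000346, in the knockout and 0.66, limma adjusted p = 3.3e-07, with anti-IL-2). Creb1, the gene of the CREB transcription factor, also rose in both (0.41, limma adjusted p = 0.000241, in the knockout and 1.11, limma adjusted p = 1.84e-11, with anti-IL-2).

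Chemoattractant and lysophospholipid receptors, whose signals RGS proteins shorten, had 10 of 19 higher and 7 lower in the knockout, and 5 of 20 higher and 8 lower with anti-IL-2 (8 higher without anti-IL-2 replicate A). DESeq2 called 6 higher in the knockout. Cxcr4, the CXCL12 receptor gene, had 84.7 and 71.6 in knockout against 437 and 404 in control libraries (-2.42, SE 0.1, limma adjusted p = 2.28e-05). Ccr6, the CCL20 receptor gene, rose in the knockout (2.85, SE 0.11, limma adjusted p = 1.92e-05), as did Ccr4 (1.19, limma adjusted p = 8.19e-05). With anti-IL-2 Ccr6 rose (2.03, limma adjusted p = 8.26e-13), Ccr4 fell (-0.64, limma adjusted p = 1.17e-05) and Cxcr4 was 0.26 (limma adjusted p = 0.0655), which passed with a stricter filter on low values and without anti-IL-2 replicate A (0.40, adjusted p = 0.00705). The changes of these 3 receptors ran in both directions within each comparison.

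Cxcr3, a chemokine receptor gene of effector T cells, had 337 and 371 in anti-IL-2 against 1491 and 1563 in untreated libraries (-2.11, SE 0.072, limma adjusted p = 7.91e-15). Ccr8, the CCL1 receptor gene, rose with anti-IL-2 (2.05, SE 0.18, limma adjusted p = 8.4e-09). In the knockout Ccr8 had 114 and 116 against 8.11 and 9.12 in control libraries and rose (3.59, SE 0.15, limma adjusted p = 2.17e-05). Cxcr3 was 0.19 in the knockout (limma adjusted p = 0.0204), a call lost with DESeq2 (0.15, adjusted p = 0.389) and without control replicate 2 or either knockout replicate (limma adjusted p = 0.0928, 0.128 and 0.125).

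The other G protein-coupled receptors of lymphocytes had 5 of 24 higher and 12 lower in the knockout, with a median of -0.38, and 6 of 25 higher and 14 lower with anti-IL-2, with a median of -0.64. The higher count was 2 without either knockout replicate in the knockout, and 3 without untreated replicate 2 with anti-IL-2. F2r and F2rl1, the genes of protease-activated receptors, and Gpr171, a receptor gene of T cells, were named in both comparisons. In the knockout they fell by 1.74, 2.55 and 1.85 on the log2 scale (limma adjusted p = 6.77e-06, 2.08e-05 and 4.75e-06). With anti-IL-2 they fell by 2.44, 2.36 and 2.06 (limma adjusted p = 5.59e-16, 7.59e-10 and 2.47e-15).

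**Figure D4:**
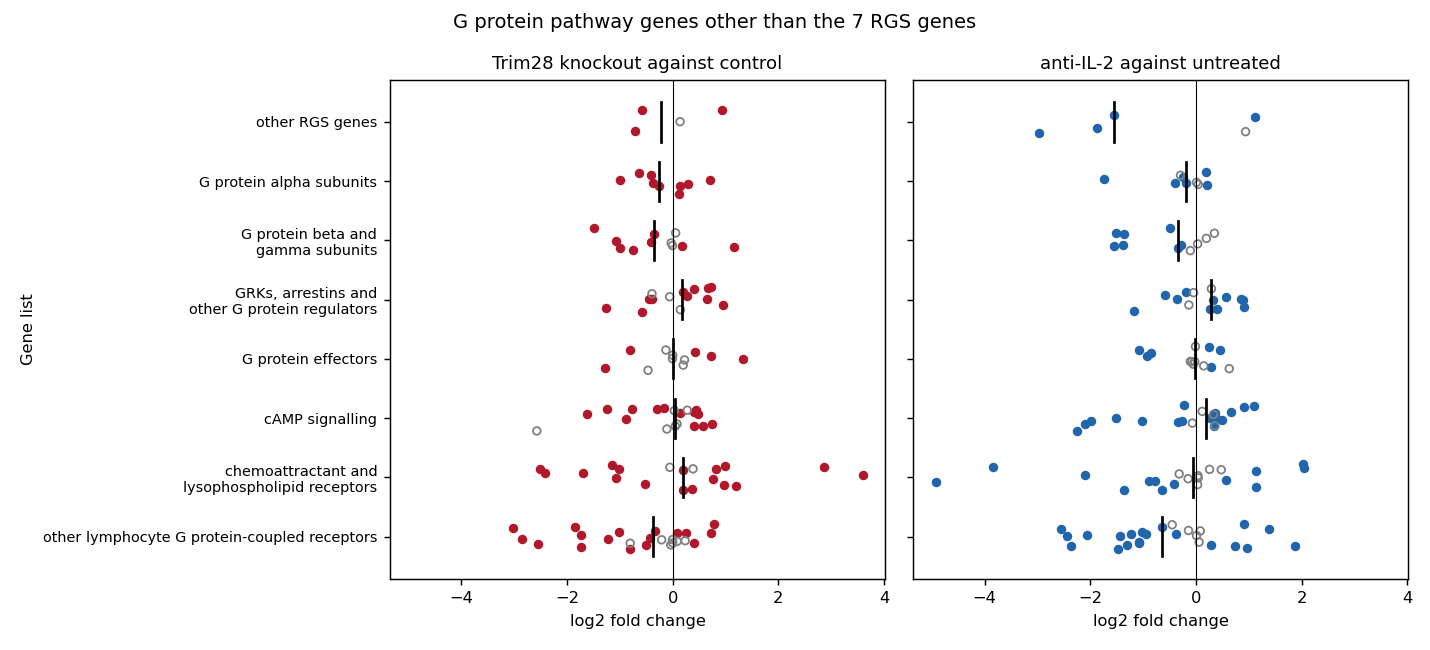
Log2 fold change of (normalised read count + 1) of each tested gene in the 8 lists of pathway genes other than the 7, knockout against control on the left and anti-IL-2 against untreated on the right. Filled points passed an adjusted p under 0.05 in limma, open points did not, and short vertical bars are list medians. The medians of beta and gamma subunits are -0.36 and -0.35, and those of the other lymphocyte receptors are -0.38 and -0.64.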

How the data were processed

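PolyA RNA of CD8+ T cells was sequenced in 8 libraries. Trim Galore 0.4.4, HISAT2 2.2.1, StringTie 2.1.4, DESeq2 and mm10 are named per the submitters' processing notes; the read counter, annotation and strand setting are not given in the sources used here. The deposited signal of each gene is a read count that the authors divided by 1 size factor per library, within each table: every value was a whole multiple of 1 read (tolerance 0.001), so reads could be recovered. All per-library columns were mapped.

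Each table was fitted alone with limma 3.58.1 (R 4.3.3, empirical Bayes with trend) on log2(value + 1), for genes with at least 10 in at least 2 of 4 libraries (15415 genes in the knockout table, 13978 in the anti-IL-2 table), with Benjamini-Hochberg adjustment over all of them. A fold change on this scale understates the change of low genes. The procedure was tested on simulated data in which far fewer genes changed than were called here, so that test does not vouch for these calls. edgeR 4.0.16 and DESeq2 1.42.0 on recovered reads, TMM, other pseudocounts (0.5, 4), other filters (none, 50), a fit of all 8 libraries, a replicate block and each library left out were alternatives. Libraries of a group differed by more than counting noise (chi-square per gene 1.32 to 3.87).

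The 7 genes and all lists were chosen with earlier results of these data known. Genes named from a list were up to 3 called ones per comparison, with a mean of at least 100, no overlap and the greatest fold change; genes next to a member and its 2 most alike genes were also named. Positions are from GENCODE M21; promoter windows are from RefSeq. Some genes that this rule names are not reported here.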

Additional observations from a re-analysis of the deposited data

How the results depend on the processing

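In the knockout comparison 5065 genes were called higher and 4344 lower. DESeq2 called 2846 and 2660, and leaving out 1 library gave 3212 to 4103 higher and 2787 to 3193 lower, lowest without knockout replicate 1 (3212 and 2787) or 2 (3234 and 2824). Of the 7 RGS genes, 5 were called lower, 3 with DESeq2 and 3 to 4 without 1 library (3 without knockout replicate 1 or 2). Of the pathway genes 39 were called higher, 25 with DESeq2 and 25 to 33 without 1 library (25 without knockout replicate 2). With anti-IL-2, 4391 genes were called higher and 4033 lower, against 3360 to 4361 and 3018 to 4124 without 1 library. Of 175 refits of the members' fold changes, 156 kept direction and side of the threshold, 14 lost the call (Rgs3 and Rgs14) and 5 changed sign. Those 5 were of Rgs10 with anti-IL-2: -0.013 with DESeq2, -0.0061 with TMM, -0.0059 with edgeR, -0.027 without anti-IL-2 replicate B and -0.022 without untreated replicate 2 (range without 1 library -0.027 to 0.042). Rgs8 in the knockout ranged from -0.016 (without knockout replicate 1) to 0.29, and Pik3r5, which was not called there, ranged without 1 library from -0.037 (without control replicate 1) to 0.026 (without control replicate 2). With the longest coding transcript as length, a choice made after seeing the data, the level of Rgs1 over that of Rgs16 was 0.68 in knockout, 0.93 in control, 0.404 in anti-IL-2 and 0.296 in untreated cells, against 0.376, 0.514, 0.223 and 0.164 with merged exons, since the length of Rgs1 is shorter. Otherwise the cause was not tested.

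Knockout and control libraries share replicate numbers, but same-numbered libraries did not deviate together (correlation 0.0127 over 15415 genes), so the numbers are not taken as pairs. With the replicate block 4881 genes were called higher and 4197 lower, and among the 7 RGS genes 1 higher and 4 lower. For anti-IL-2 against untreated the case differs. No paired analysis was possible because the anti-IL-2 columns carry no replicate number. Counts of 16 to 139.9 per library, as for Rgs12 and Rgs14, limit precision; with 2 libraries per group, leaving 1 out leaves an arm whose lone library is assumed to vary like the others.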
